A study of Mus musculus with 2 samples.

Results

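The genes described here are those that encode the subunits of the mouse proteasome, its assembly chaperones, its activators and its inhibitor. They were taken as the protein-coding genes whose symbol begins with Psm, a letter from a to g and a number, which gave 50 of the 21474 protein-coding genes that had a symbol. One of them, Psmc3ip, shares only the letters of the name. It encodes a meiotic recombination factor that binds PSMC3 and is no part of the proteasome, so 49 genes belong to the complex and its regulators, and Psmc3ip is given apart.

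The data are total RNA-seq of liver from B6NCrl mouse embryos at embryonic day 16.5, with no transgene, deletion or treatment named. There was 1 group of 2 biological replicates, each made from livers of male and female embryos pooled together. The pool of replicate 2 held 41 embryos, the number for replicate 1 was not given, and both libraries carried the same donor identifier. From each pool, 10 ng of RNA longer than 200 nt went into an ultra-low input library with spike-in RNA. With 1 group, no contrast between conditions and no p-value can be given, and each gene is described by its level in both libraries, their mean and their SD. The SD measures the spread between pools and not between embryos.

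The proteasome is the protease that degrades proteins tagged with ubiquitin. Its barrel, the 20S core particle, is built of outer rings of alpha subunits, which gate the entrance, and inner rings of beta subunits, some of which carry the catalytic sites. The 19S regulatory particle caps the barrel, binds ubiquitin chains, removes them and unfolds the substrate with a ring of ATPases. In cells of the immune system and in cells exposed to interferon gamma, the catalytic beta subunits can be replaced by the immunoproteasome subunits PSMB8, PSMB9 and PSMB10, which shift cleavage towards peptides that suit class I antigen presentation. The fetal liver is a blood-forming organ, so its RNA comes from hepatocytes together with erythroid cells, macrophages, granulocytes and their precursors.

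The authors' estimated read counts, called expected counts, came to 44477766 for replicate 1 and 48820712 for replicate 2. The 50 genes took 252619 and 253529 of them. Levels are in TPM, an abundance scale that corrects for transcript length and depth. Spike-ins took 3.96% and 5.08% of all TPM. The labelled tissue carried its markers, since the 6 hepatocyte markers, albumin and alpha-fetoprotein genes among them, summed to 29199 and 31172 TPM and the 6 erythroid markers to 3659 and 3731 TPM. Neutrophil markers summed to 5840 and 6138 TPM, macrophage markers to 331.1 and 357.4 TPM and general leukocyte markers to 325.3 and 355.5 TPM. Lymphoid markers summed to 41.7 and 48.6 TPM, with the T cell gene Cd3e at 0. Each sum depends on the genes listed and is not a share of cells. S100a8 alone held 3107 and 3183 TPM of the neutrophil sums. In bulk RNA, a smaller share of cells that express a gene and less RNA of it per cell cannot be told apart.

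Most proteasome genes were among the more highly expressed genes of the liver. Of the 50 genes, 48 had 1 TPM or more in both libraries, where 52.2% of all protein-coding genes did. At 10 TPM or more in both libraries stood 45 of the 50, against 26.4% of protein-coding genes, and at 100 TPM or more stood 21, against 3.98%. The 5 genes that did not reach 10 TPM in both libraries were the immunoproteasome gene Psmb9, the activator genes Psme2b and Psme4, and the tissue-restricted Psma8 and Psmb11. The 50 genes together held 0.504% of all TPM in replicate 1 and 0.467% in replicate 2, 0.486% ± 0.0261 (SD, n = 2). The core particle accounted for 50.9% ± 0.797 of that sum and the 19S particle for 33.5% ± 0.0102.

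**Figure D1:**
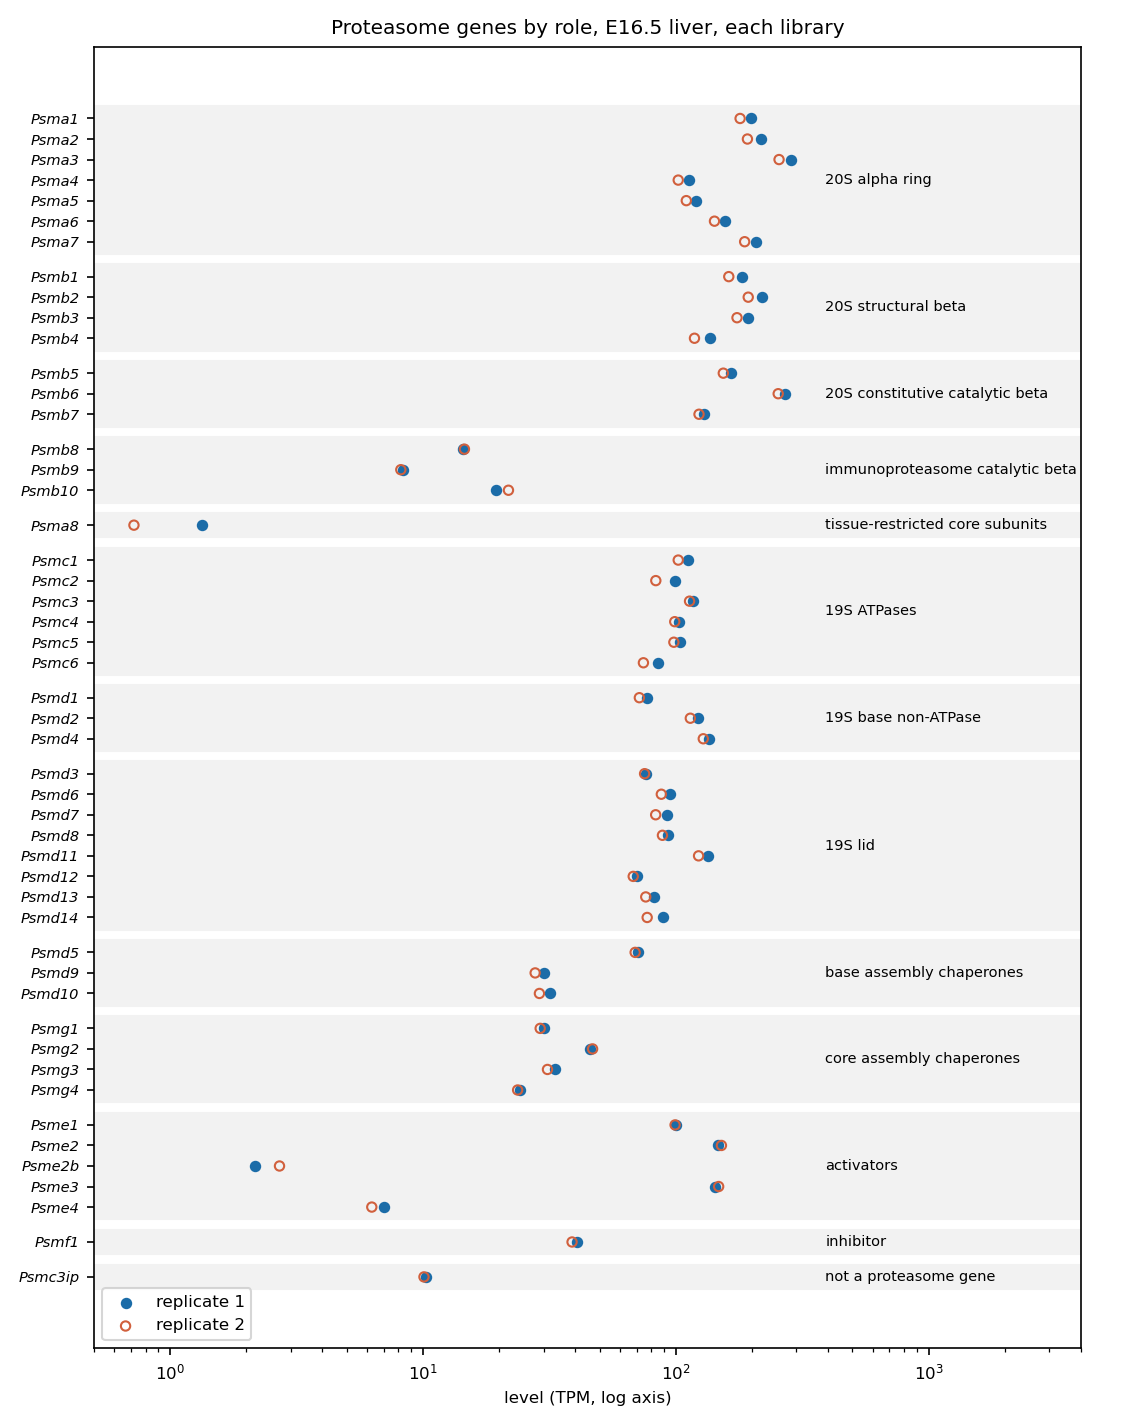
Level of each proteasome gene in replicate 1 (filled) and replicate 2 (open), in TPM on a log axis, grouped by the role of the protein; Psmb11, at 0 in both libraries, is not drawn. The 14 subunits of the core lie between 102.3 and 284.7 TPM and the 17 of the 19S particle between 67.9 and 135.8 TPM, while the 3 immunoproteasome subunits lie between 8.18 and 21.8 TPM.

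Counted over all transcripts, the alpha ring had the highest median of all roles, 198.3 TPM in replicate 1 and 179.7 TPM in replicate 2 (189.0 ± 13.1, SD, n = 2). Its range overlapped that of the structural beta subunits. Over coding transcripts alone its median was not the highest, as given below. All 7 of its genes, Psma1 to Psma7, exceeded 100 TPM in both libraries. Psma3 was the highest of all proteasome genes, at 284.7 and 256.2 TPM (270.4 ± 20.1), and ranked 306th among protein-coding genes. Psma4 was the lowest of the ring, at 112.5 and 102.3 TPM (107.4 ± 7.21). These genes are separated by a ratio of 2.52 in mean TPM, and their values do not overlap between libraries.

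The structural beta subunits, PSMB1 to PSMB4, complete the inner rings without a catalytic site. Their median was 187.7 and 168.4 TPM (178.0 ± 13.6). Psmb2 was the highest, at 218.5 and 193.5 TPM (206.0 ± 17.6), and Psmb4 the lowest, at 137.2 and 118.6 TPM (127.9 ± 13.2). The constitutive catalytic subunits were in the same range. Psmb5, which encodes the chymotrypsin-like subunit, stood at 164.8 and 154.2 TPM (159.5 ± 7.49). Psmb6, for the caspase-like subunit, stood at 270.5 and 254.2 TPM (262.4 ± 11.5). Psmb7, for the trypsin-like subunit, stood at 129.8 and 123.6 TPM (126.7 ± 4.38). Psmb6 exceeded Psmb7 by a ratio of 2.08 in replicate 1 and 2.06 in replicate 2, with no overlap, although an assembled standard core holds both proteins in equal number.

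When the 14 core subunits were ordered by mean level, 10 of the 13 neighbouring pairs overlapped when the libraries were pooled. All 14 genes were higher in replicate 1, and within the libraries 12 of the 13 pairs kept their order in both, Psmb4 and Psmb7 being the exception. Pairs whose values did not overlap lay at the steps between Psmb6 at 262.4 TPM and Psmb2 at 206.0 TPM, between Psma6 at 149.7 TPM and Psmb4 at 127.9 TPM, and between Psmb7 at 126.7 TPM and Psma5 at 115.2 TPM. The highest to lowest ratio was 2.53 in replicate 1 and 2.50 in replicate 2.

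Each constitutive catalytic subunit has an immunoproteasome counterpart that takes its place in the ring, so the pairs were set against each other within each library. Coordinates are on GRCm38, the assembly also called mm10, from GENCODE M21. All 3 immunoproteasome genes were expressed, and in both libraries all 3 lay below every other subunit of the standard core and cap. Psmb8 (ENSMUSG00000024338.10, chr17:34197721-34201454, plus strand), the counterpart of Psmb5, stood at 14.4 and 14.6 TPM (14.5 ± 0.141) from 593 and 672 counts. Psmb9 (ENSMUSG00000096727.1, chr17:34181987-34187764, minus strand), the counterpart of Psmb6, was the lowest, at 8.33 and 8.18 TPM (8.26 ± 0.106) from 360.47 and 368 expected counts. Psmb10 (ENSMUSG00000031897.8, chr8:105935735-105938444, minus strand), the counterpart of Psmb7, was the highest, at 19.5 and 21.8 TPM (20.6 ± 1.58) from 963 and 1159 counts. The order Psmb10, Psmb8, Psmb9 was the same in both libraries and the values of the 3 genes did not overlap.

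The constitutive partners are Psmb5 (ENSMUSG00000022193.6, chr14:54614119-54618022, minus strand), Psmb6 (ENSMUSG00000018286.6, chr11:70525367-70527858, plus strand) and Psmb7 (ENSMUSG00000026750.5, chr2:38588036-38644087, minus strand). Their order, Psmb6 first and Psmb7 last, was not that of their counterparts, in which the partner of Psmb6 was the lowest and the partner of Psmb7 the highest. Psmb8 made up 8.03% of the TPM of its pair in replicate 1 and 8.64% in replicate 2 (8.33% ± 0.433, SD, n = 2), and Psmb5 exceeded it by a ratio of 11.5 and 10.6. Psmb9 made up 2.99% and 3.12% of its pair (3.05% ± 0.0919), and Psmb6 exceeded it by 32.5 and 31.1. Psmb10 made up 13.1% and 15.0% of its pair (SD 1.34), and Psmb7 exceeded it by 6.65 and 5.68. The 3 shares did not overlap. Over all 6 catalytic genes, the immunoproteasome held 6.95% and 7.72% of the summed TPM (7.34% ± 0.542).

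The precision that the counts give was read from the share of expected counts, which is not corrected for length and so lies above the share of TPM. For Psmb8 it was 9.97% of 5949 counts in replicate 1, with a 95% Wilson interval of 9.23% to 10.8%, and for 6087 counts in replicate 2 the interval was 10.3% to 11.9%. For Psmb9 it was 4.37% of 8238 counts (3.95% to 4.83%) and 4.39% of 8378 counts (3.97% to 4.85%). For Psmb10 it was 14.4% of 6690 counts (13.6% to 15.3%) and 16.3% of 7102 counts (15.5% to 17.2%). The intervals of the libraries overlapped for Psmb8 and Psmb9 and were apart for Psmb10. The intervals cover counting error only and treat each count as independent. No label names molecular identifiers, so repeated reads of 1 molecule could not be removed. The intervals may therefore be too narrow, also where they were apart for Psmb10.

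**Figure D2:**
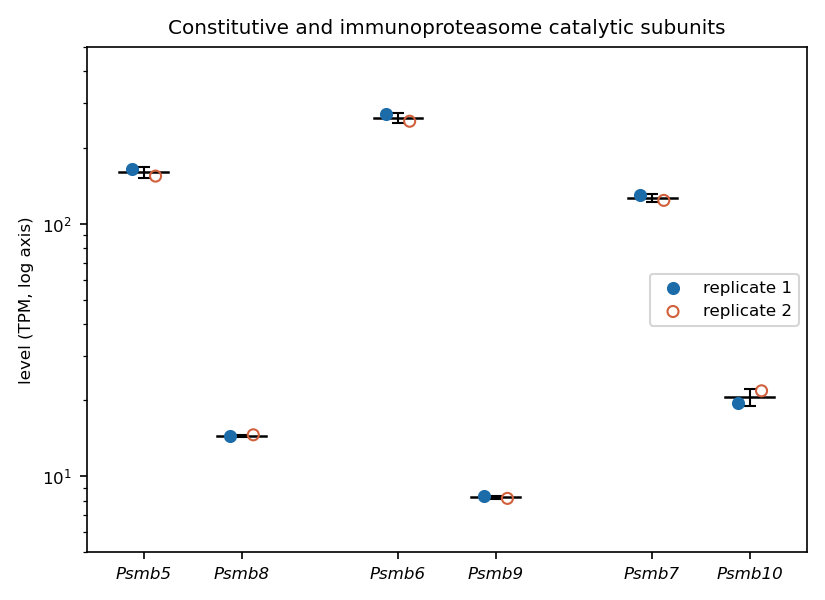
Level of the constitutive (Psmb5, Psmb6, Psmb7) and immunoproteasome (Psmb8, Psmb9, Psmb10) catalytic genes in TPM on a log axis; points are the 2 replicates, horizontal lines their mean and vertical bars 1 SD. Each constitutive gene lies above its counterpart in both libraries, by 11.5 and 10.6 for Psmb5 over Psmb8, 32.5 and 31.1 for Psmb6 over Psmb9, and 6.65 and 5.68 for Psmb7 over Psmb10.

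The partners of a pair are related but not alike in sequence. The coding sequences were 67.9% identical between Psmb5 and Psmb8, 66.2% between Psmb6 and Psmb9 and 63.3% between Psmb7 and Psmb10. Expected counts were whole numbers for 5 of the 6 genes. The exception was Psmb9 in replicate 1. Psmb9 overlaps the 5′ end of Tap1, a class I peptide transporter gene on the opposite strand, over 212 exonic nt, which is 5.79% of its exons. No label names a strand-specific step, so reads there cannot be assigned by strand. Tap1 stood at 3.35 and 3.69 TPM. Psmb7 overlaps the exons of Nek6, also on the opposite strand, over 405 nt, or 11.8% of its own. Nek6 stood at 35.7 and 40.4 TPM.

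The sequences before the starts of these genes are shown because each pair encodes proteins that fill the same place in the ring and yet differed widely in level. RefSeq windows (GRCm38.p6), from 250 bases before to 50 after the annotated start, were searched on both strands for 4 motifs. These were TGACNNNGC, the core of the antioxidant response element bound by NRF1 and NRF2, which drive proteasome genes, and the interferon motifs GAAANNGAA and TTCNNNGAA, bound by IRF and STAT factors. The last was CCAAT, bound by NF-Y. Capitals mark the matches. Psmb5, Psmb6 and Psmb10 are shown as far as the window lies outside the gene, and Psmb8 and Psmb9, whose windows lie inside an annotated exon of their own gene, as 30 bases around the match. Psmb7 had no window in the table.
Psmb5, chr14:54618023-54618245, minus strand: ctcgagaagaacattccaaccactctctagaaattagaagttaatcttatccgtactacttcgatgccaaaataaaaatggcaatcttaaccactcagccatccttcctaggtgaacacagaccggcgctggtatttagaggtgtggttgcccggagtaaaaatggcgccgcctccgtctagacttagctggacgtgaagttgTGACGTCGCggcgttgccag
Psmb6, chr11:70525107-70525366, plus strand: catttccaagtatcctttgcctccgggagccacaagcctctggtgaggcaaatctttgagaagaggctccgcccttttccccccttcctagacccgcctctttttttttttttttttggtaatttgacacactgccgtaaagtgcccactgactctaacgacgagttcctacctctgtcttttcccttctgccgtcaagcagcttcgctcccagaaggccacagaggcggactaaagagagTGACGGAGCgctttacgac
Psmb10, chr8:105938445-105938642, minus strand: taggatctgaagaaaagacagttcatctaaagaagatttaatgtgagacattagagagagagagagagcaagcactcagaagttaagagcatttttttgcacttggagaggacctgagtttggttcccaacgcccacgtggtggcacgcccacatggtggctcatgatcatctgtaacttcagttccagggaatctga
Psmb8, chr17:34198087-34198116, plus strand: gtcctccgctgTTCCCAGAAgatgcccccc
Psmb9, chr17:34187322-34187351, minus strand: cgcgcagccgctgATTGGaaagccgagccc

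Both constitutive windows held the antioxidant response core, as TGACGTCGC starting 47 bases before the start of Psmb5 and TGACGGAGC starting 9 bases before that of Psmb6. None of the 3 immunoproteasome windows held it. Psmb8 held the STAT motif, as TTCCCAGAA, 97 bases before the start, Psmb9 held a CCAAT box on the other strand, 8 bases before it, and Psmb10 held none of the 4 motifs. Such short patterns are common. Of 45 windows found for 42 of the 50 genes, 6 (13.3%) held the antioxidant response core, against 12.4% of 32851 windows of all genes. The IRF motif was in 7 (15.6%), against 8.56%, the STAT motif in 3 (6.67%), against 8.30%, and CCAAT in 15 (33.3%), against 37.4%. A match is a run of letters and not evidence of binding, which these data do not measure.

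Both tissue-restricted core subunits stood at 0 or near 1 TPM. Psma8, the alpha subunit of the spermatoproteasome of testis, had 1.34 TPM in replicate 1 from 90 counts and 0.720 TPM in replicate 2 from 52 counts. Its coding sequence is 74.9% identical to that of Psma7, and its counts were whole numbers. Of 6 testis germ cell markers, none reached 1 TPM in both libraries. They summed to 0.320 and 0.170 TPM, with the sperm genes Prm1 and Tnp1 at 0. Psmb11, the catalytic subunit of the thymoproteasome of thymic cortical epithelium, was at 0 in both libraries. A count of 0 allows up to 0.0172 TPM in replicate 1 and 0.0159 TPM in replicate 2, taking 3 counts as the limit. The list of 6 thymus epithelium markers, which includes Psmb11 itself, summed to 7.95 and 9.66 TPM and 3 of its genes reached 1 TPM in both libraries, while Foxn1, the regulator that defines that epithelium, was also at 0.

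The 50 genes lie on 16 chromosomes, with 10 of them on chromosome 11. Members that lie near each other on a chromosome differed in level. Psmb11, at 0, lies 3410 nt from Psmb5 on chromosome 14, which stood at 164.8 and 154.2 TPM. Psmb8 and Psmb9 lie 9956 nt apart on chromosome 17, and Psmb8 exceeded Psmb9 by 1.73 and 1.78.

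The 19S particle was expressed below the core. The median of its 17 genes was 95.2 and 87.7 TPM (91.4 ± 5.27), against 187.7 and 168.4 TPM (178.0 ± 13.6) for the core, a ratio of 1.97 and 1.92. In both libraries, 10 of the 14 core genes exceeded every 19S gene. The highest to lowest ratio within the 19S particle was 1.91.

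The ATPases PSMC1 to PSMC6 form the ring that unfolds the substrate. The median of their genes was 103.6 and 98.7 TPM (101.1 ± 3.44). Psmc3 was the highest, at 117.0 and 113.4 TPM (115.2 ± 2.54), and Psmc6 the lowest, at 85.4 and 74.5 TPM (80.0 ± 7.66). The non-ATPase subunits of the base are the scaffolds PSMD1 and PSMD2 and the ubiquitin receptor PSMD4. Psmd4 was the highest gene of the whole 19S particle, at 135.8 and 128.5 TPM (132.2 ± 5.11). Psmd2 stood at 122.1 and 114.2 TPM and Psmd1 at 76.9 and 71.8 TPM (74.3 ± 3.61), so the scaffold genes, which encode proteins of similar size, did not overlap.

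The lid includes PSMD14, the enzyme that cuts ubiquitin chains from the substrate, and its inactive partner PSMD7. The 8 lid genes had a median of 85.5 ± 7.52 TPM. Psmd11 was the highest, at 134.3 and 123.1 TPM (128.7 ± 7.97), and Psmd12 the lowest, at 70.5 and 67.9 TPM (69.2 ± 1.83). Psmd14 stood at 89.4 and 77.1 TPM and Psmd7 at 92.3 and 83.3 TPM, values that overlapped, with Psmd7 the higher in both libraries. In the order of all 17 genes, 13 of 16 neighbouring pairs overlapped when the libraries were pooled, and 11 of 16 kept their order in both libraries.

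Across the 31 subunit genes, longer transcripts had lower levels. Core transcripts were 767.4 to 1239 nt long and 19S transcripts 1300 to 3045 nt in replicate 1, so the ranges do not meet. Spearman's rho of length and TPM across genes was −0.85 and −0.84 over the 31, −0.53 and −0.59 within the core (14 genes) and −0.53 and −0.52 within the 19S particle (17 genes). These are descriptions across genes that share their libraries, and TPM is itself computed from length, so length and particle cannot be told apart here. Counts that were not divided by length gave a highest to lowest ratio of 2.18 for the core and 2.91 for the 19S particle, so which particle had the wider range depends on the division by length. The order of levels was nearly the same in both libraries, with a rho of 0.99 over the 31 genes.

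**Figure D3:**
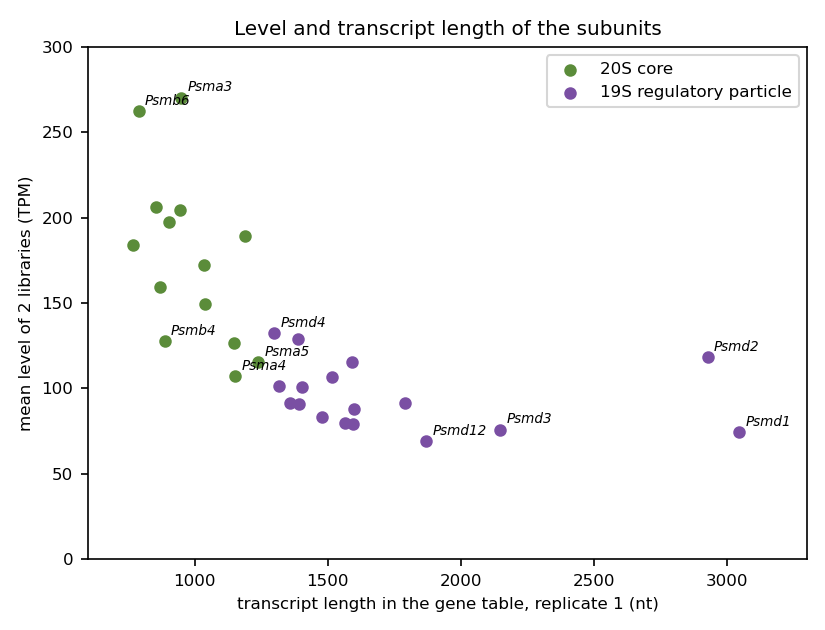
Mean level of the 14 core and 17 regulatory particle genes in TPM against transcript length in nt, each point 1 gene and the mean of 2 libraries. Core genes have shorter transcripts (767.4 to 1239 nt) and a median of 178.0 TPM, regulatory particle genes longer ones (1300 to 3045 nt) and a median of 91.4 TPM.

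A pair of other multi-subunit complexes was described in the same way. The COP9 signalosome, which resembles the lid in its architecture, had a median of 54.2 ± 3.84 TPM over 9 genes. It ranged from Cops7b at 10.2 TPM to Cops6 at 134.3 TPM, a ratio of 13.1. The CCT chaperonin ring had a median of 161.7 ± 16.3 TPM over the 7 of 8 listed genes that were found and a ratio of 2.37. The ratios of 2.52 and 1.91 in the proteasome particles lay near that of the chaperonin ring, with no test of the difference. They cannot be set against that of the signalosome, whose list held both Cops7a (41.1 TPM) and Cops7b. The core list left out the low immunoproteasome counterparts. After Cops7b, the lowest signalosome gene was Cops2 at 33.0 TPM.

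Assembly chaperones help to build the particle, and most of their genes were expressed below those of the subunits. The core chaperones PSMG1 to PSMG4 had a median of 30.9 ± 1.08 TPM, from Psmg4 at 24.2 and 23.7 TPM (SD 0.346) to Psmg2 at 45.9 and 46.9 TPM (46.4 ± 0.714). The base chaperone genes Psmd9 and Psmd10 were in the same range, with Psmd9 the lowest at 30.0 and 27.8 TPM (28.9 ± 1.58). Psmd5 stood above them, at 71.0 and 69.1 TPM (70.1 ± 1.35), within the range of the 19S subunits. All 7 chaperone genes lay below every core subunit in both libraries.

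The activators are alternative caps that open the core without the 19S particle. Their levels ranged widely. Psme1 and Psme2 encode PA28 alpha and PA28 beta, which form a joint ring and are induced by interferon gamma. Psme1 stood at 100.3 and 99.4 TPM (99.9 ± 0.665) and Psme2 at 147.4 and 151.6 TPM (149.5 ± 2.94), so Psme2 was higher by 1.47 and 1.53. The genes lie near each other on chromosome 14, 5911 nt apart and on opposite strands. They were far above Psmb8, Psmb9 and Psmb10, which are induced by the same cytokine. Psme3, for the nuclear activator PA28 gamma, stood at 142.9 and 147.8 TPM (145.3 ± 3.39), a range that overlapped that of Psme2. Counted over all transcripts, Psme2 was the higher in both libraries, but not over coding transcripts alone, as given below.

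Psme4, for the large activator PA200, was low, at 7.02 and 6.28 TPM (6.65 ± 0.523), and Psme3 exceeded it by 20.4 and 23.5. Psme2b had 2.16 and 2.71 TPM (2.44 ± 0.389), from 67.17 and 91.12 expected counts. Its coding sequence matches that of Psme2 at 712 of 717 nt (99.3%), so its counts depend on how shared reads were divided and its level is uncertain. The inhibitor gene Psmf1, for PI31, stood at 40.7 and 38.9 TPM (39.8 ± 1.29). Psmc3ip, the gene that is not of the proteasome, stood at 10.3 and 10.1 TPM (10.2 ± 0.127).

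The transcript tables show which annotated transcript of each gene the reads were assigned to. Several transcripts are annotated for 37 of the genes that reached 10 TPM in both libraries, and in 34 of them 1 transcript held at least 50% of the TPM, as it did in 79.0% of protein-coding genes with the same level and several transcripts. The median share of the leading transcript was 94.4%, against 73.9% over those 4326 protein-coding genes. Psmc3ip was the single gene of the 37 led by a transcript that is not annotated as coding, where 8.07% of those protein-coding genes were. Its retained-intron transcript held 54.5% and 58.6% of its TPM. No proteasome subunit was led by such a transcript when both libraries were averaged.

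The genes whose leading transcript held under 50% were Psma3, Psmb4 and Psme2. In Psma3, the highest gene of the family, coding transcripts held 49.5% and 46.5% of the TPM, retained-intron transcripts 31.1% in each library, and transcripts annotated as targets of nonsense-mediated decay 19.4% and 22.4%. In Psmb4, the coding Psmb4-201 held 45.2% and 51.9% and the retained-intron Psmb4-202 held 51.2% and 45.1%. The leader therefore changed between libraries in Psmb4, the single such gene of the 37, and it changed in 5.15% of the protein-coding genes. In Psme2, coding transcripts of 795 and 962 nt shared most of the level, with 46.9% and 43.8% for the shorter and 38.1% and 35.0% for the longer. Retained-intron transcripts held 13.8% and 21.1% of Psme2, mostly Psme2-203, of 185 nt. Coding transcripts held 97.0% and 97.1% of Psme3. Over coding transcripts alone, Psme3 was therefore higher than Psme2 in both libraries.

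Counted over coding transcripts alone, the order within the core changed. Psmb6 was then the highest, at 243.7 TPM, and Psmb4 the lowest, at 61.8 TPM, and the ratio rose from 2.52 to 3.94. The median gene of the alpha ring was then Psma6, at 156.0 and 141.7 TPM. That lay below the median of the constitutive catalytic subunits, Psmb5 at 164.8 and 154.2 TPM. In the 19S particle, the lowest gene was then Psmd13 at 54.3 TPM and the ratio was 2.34. Coding transcripts held 69.1% and 67.7% of the TPM of Psmd13. How well the reads separate overlapping transcripts of 1 gene was not tested.

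The immunoproteasome genes were nearly free of such transcripts in the case of Psmb8, where coding transcripts of 815 and 1628 nt held almost all of the TPM. The shorter, Psmb8-203, held 67.6% and 63.5%, and the longer, Psmb8-201, 32.4% and 36.3%. The first exon of each differs, and in the annotation used for names the coding frame of Psmb8-203 is incomplete. In Psmb9, Psmb9-204 held 65.7% and 64.5% and Psmb9-202 30.5% and 24.0%. Psmb10 has 1 annotated transcript.

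**Figure D4:**
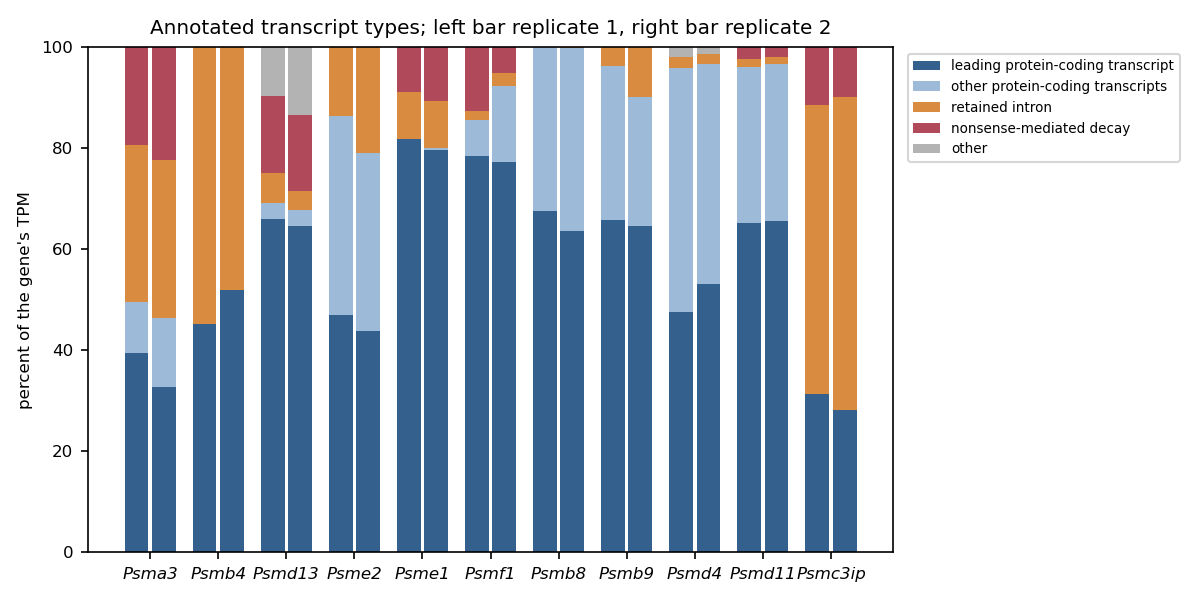
Share of each gene's TPM, in percent, by annotated transcript type for 11 genes, with the left bar replicate 1 and the right bar replicate 2. Coding transcripts (blue) make up 49.5% and 46.5% of Psma3, 45.2% and 51.9% of Psmb4 and nearly all of Psmb8.

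The median size of the difference between replicates was about the same for these genes as for protein-coding genes at large. The latter were not matched for level. The proteasome genes had a small shared offset. Of the 50, 47 averaged at least 100 expected counts, and Psma8, Psmb11 and Psme2b did not. On the log2 scale of TPM + 1, centred on the median of genes above that count, the ratio of replicate 2 to replicate 1 had a median of −0.11 over the 47, against 0.00 over 11516 protein-coding genes, 90% of which lay between −0.25 and 0.32. The median size of the ratio without its sign was 0.12 over the 47 and 0.11 over the protein-coding genes. None of the 47 passed a 1.5-fold difference, where 1.06% of protein-coding genes did, a share too small to tell from none among 47 genes. The authors' TPM intervals of the libraries were apart in 26 of the 47, a larger share than the 25.8% of protein-coding genes. Those genes were not matched to the 47 for count, on which the width of an interval depends. The larger share can therefore not be read as a trait of proteasome genes.

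The offset ran in one direction. TPM was higher in replicate 1 in 42 of the 47 genes, against 44.8% of protein-coding genes. In TPM the exceptions were Psmb8, Psmb10, Psme2, Psme3 and Psmg2. With spike-in scaling all 47, and 91.6% of protein-coding genes, were lower in replicate 2. Every one of the 31 core and 19S subunit genes had a centred ratio below 0, from −0.27 for Psmc2 (99.5 and 83.4 TPM) to −0.03 for Psmd3 (76.2 and 75.3 TPM). All 31 also lay below 0 with the other scalings tried, of which spike-in scaling moved the median of all protein-coding genes to −0.29. Psmb10 had the highest ratio among the 47, 0.13, and Psmb9 had −0.04 and Psmb8 0.00.

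The CCT ring moved like the subunits, with 7 of 7 genes higher in replicate 1, and the COP9 signalosome less so, with 6 of 9. Most markers of blood and liver cells had more TPM in replicate 2. Of 6 genes each, 6 leukocyte, 6 macrophage, 5 hepatocyte, 5 neutrophil and 4 erythroid markers were higher in replicate 2. These counts are of TPM that was not centred, in which 44.8% of protein-coding genes were higher in replicate 1. Mpo, among the 5 neutrophil markers, had 371.8 TPM in each library to the digits given. The sums of the markers are given with the tissue markers, and their direction was not computed with spike-in scaling. The part of cell makeup in the offset was not tested.

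**Figure D5:**
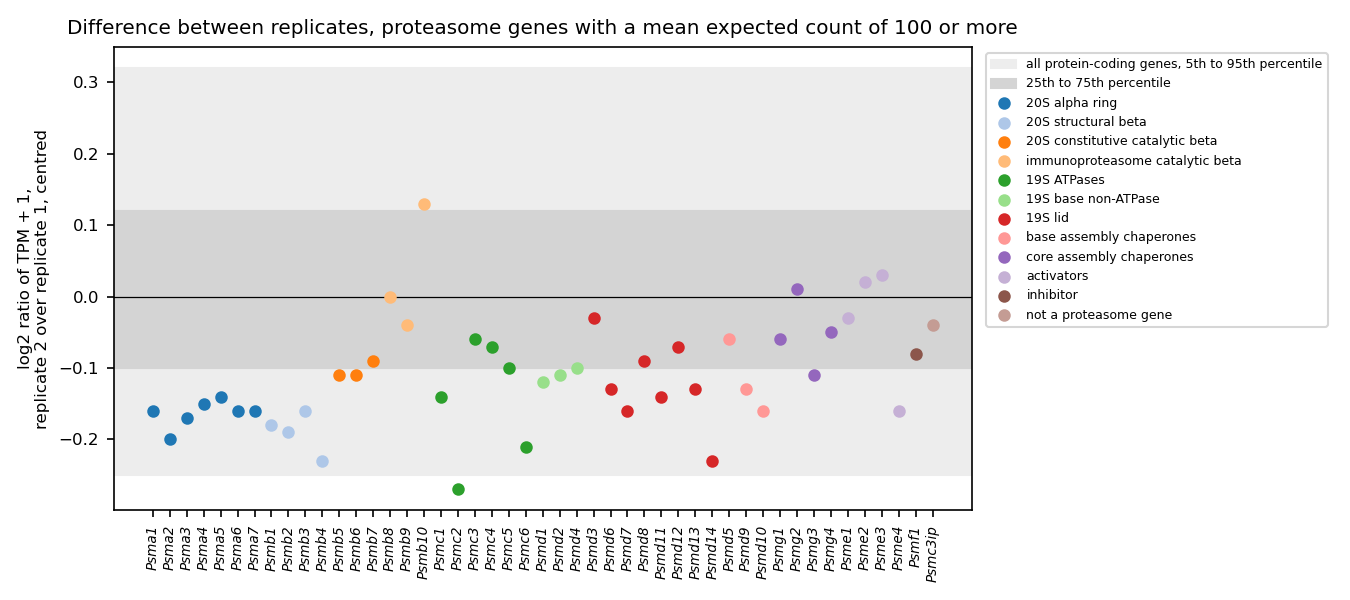
Centred log2 ratio of TPM + 1, replicate 2 over replicate 1, for the 47 genes that averaged at least 100 expected counts, coloured by role; shaded bands hold the central 50% and 90% of 11516 protein-coding genes. The 31 core and 19S subunits lie between −0.27 and −0.03, and Psmb10 is the highest at 0.13.

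Genes that work with the proteasome but carry other names were read from a fixed list, of which 11 of 12 were found. All 11 reached 1 TPM in both libraries and 10 of them 10 TPM, and the median was 56.5 ± 4.94 TPM. The highest was Pomp, the maturation factor of the core, at 150.4 and 126.3 TPM (138.4 ± 17.1), which is above all 7 chaperone genes with Psm symbols. Sem1, a small lid subunit, stood at 93.6 and 81.5 TPM (87.6 ± 8.56), within the range of the lid. The lowest were Ecpas, for a 19S-binding scaffold, at 12.5 and 11.2 TPM, and Akirin2, for a factor in nuclear import of the proteasome, at 8.46 and 9.17 TPM.

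Of 15 regulators of proteasome genes, 14 reached 1 TPM in both libraries. Their median was 16.3 and 14.2 TPM (15.3 ± 1.48). Vcp, for the segregase that extracts proteins for degradation, was the highest at 174.8 and 167.5 TPM (171.2 ± 5.15), followed by the NF-Y subunit gene Nfyc at 40.4 ± 1.54 TPM. Nfe2l1 (NRF1), which restores proteasome synthesis when the protease is inhibited, stood at 17.7 and 18.0 TPM and Nfe2l2 (NRF2) at 36.2 ± 0.325 TPM. Their relative Nfe2l3 was the lowest, at 0.180 and 0.130 TPM, and Foxo4 stood at 1.02 and 1.45 TPM.

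All 16 ubiquitin and shuttle factor genes reached 1 TPM in each library, with 47.0 and 45.1 TPM as their median (46.0 ± 1.33). The polyubiquitin gene Ubb, at 1440 and 1444 TPM (1442 ± 2.66), was the highest and exceeded every proteasome subunit. The lowest were the shuttle gene Ubqln2 at 3.17 ± 0.516 TPM and the alternative E1 enzyme gene Uba6 at 3.20 ± 0.170 TPM.

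Of 22 genes of the interferon response and class I presentation, 20 reached 1 TPM in both libraries and 14 of them 10 TPM, and the median was 15.1 and 15.2 TPM. The chaperone gene Calr, at 417.2 ± 7.19 TPM, and B2m, the class I light chain, at 436.0 and 371.3 TPM (403.6 ± 45.7), were the highest. The lowest were Nlrc5, the transactivator of class I genes, at 0.0800 and 0.210 TPM, and the interferon target Ifit1 at 0.710 and 0.670 TPM. Tap1 and Tap2, which encode the transporter of peptides for class I molecules and lie beside Psmb8 and Psmb9 on chromosome 17, stood at 3.52 ± 0.240 and 5.87 ± 0.0849 TPM, below both. Irf1 stood at 13.0 and 15.4 TPM.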

How the data were processed

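Total RNA from E16.5 liver was sequenced in 2 libraries, 1 per pooled biological replicate. The authors quantified genes and transcripts on mm10 against GENCODE M4, as a text deposited with the tables and the file headers state. Column names are those of RSEM. Its version and the aligner are not given in the sources used here. Per the file headers, the deposited expected counts are estimated read counts that need not be whole. TPM, as deposited, sums to the same total in each table with the spike-ins counted in, and a posterior mean TPM was deposited beside it. The deposited interval bounds of TPM were treated as a score, with no stated level. The deposited percent column, each transcript's share of its gene, was read, and shares were recomputed from TPM. Lengths are the authors' values in nt.

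Symbols, types and coordinates came from GENCODE M21 (GRCm38), matched by gene ID without version. The members and gene lists were chosen with earlier results of these data known. Named genes are all members by role, with values per library for the catalytic pairs, activators, tissue-restricted genes and the extremes of each role, and the 2 highest and 2 lowest genes of each list. A gene that this rule selects is not reported here. Replicates were compared by the log2 ratio of TPM + 1, centred, for genes that averaged at least 100 expected counts. A count was called whole if it lay within 0.01 of an integer. Wilson intervals are at 95%. Coding sequences were aligned from the annotated transcripts. The ratio calculation was checked on simulated data. Alternatives were other detection thresholds, pseudocounts and estimates, counts in place of TPM, coding transcripts alone, TMM factors (edgeR 4.0.16), size factors (DESeq2 1.42.0, R 4.3.3, counts rounded), scaling to the spike-ins and either replicate by itself. Tables were handled in python 3.11.15 with numpy 2.4.6, pandas 2.3.3, scipy 1.17.1, biopython 1.88 and matplotlib 3.10.9.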

Additional observations from a re-analysis of the deposited data

How the results depend on the processing

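Of 56 alternative values, 45 stayed within a set tolerance and 11 moved. The tolerance was the spread of the replicates for levels, shares and highest to lowest ratios, and 1.5 times for counts. For the median replicate ratio it was 0.11, the median size of that ratio over protein-coding genes. This is about as large as the offset itself, −0.11, so staying within it says little. A change of sign could be called only for the median replicate ratio, and none was. For medians and shares, a value from 1 replicate must lie within the spread of the replicates around the mean. Such values are among the 45 and say nothing on robustness. The 19S median was 98.1 TPM when TPM was rescaled over annotated nuclear genes. With expected counts not divided by length, the share was 10.5% for Psmb8 and 4.38% for Psmb9, and the highest to lowest ratio was 2.18 for the core and 2.91 for the 19S particle, which turns the order of these ratios. The posterior mean TPM gave 3.15% for Psmb9. Coding transcripts alone gave ratios of 3.94 and 2.34. The number of genes led by a non-coding transcript ranged from 1 to 2 when either replicate was left out, the second being Psmb4 in replicate 1. Spike-in scaling gave a median replicate ratio of −0.45 for the 47 genes, against −0.29 for protein-coding genes, with 1 gene, Psmc2, past 1.5-fold. No paired analysis was possible because there was 1 group. With 2 libraries, an SD is itself uncertain. Depth limits Psma8, Psmb11 and Psme2b, which had fewer than 100 counts. Overlaps on the opposite strand limit Psmb7, Psmb9, Psmc3, Psmd13 and Psmc3ip.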
